A study of Mus musculus with 6 samples.

Results

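Cholesterol synthesis was followed in intestinal adenomas through 7 genes: Hmgcs1, Idi1, Fdft1, Sqle and Lss, which encode enzymes of the route from acetyl-CoA to lanosterol, and Srebf2 and Insig1, which encode its transcriptional activator and a brake on that activator. The 7 genes were chosen by name, by matching gene identifiers to GENCODE M21 symbols, and make up 7 of 34866 genes in the count table. None encodes an uptake receptor, so uptake was read from a separate list of 13 genes. All 7 had enough reads to be tested, among 16536 tested genes. RNA-seq was performed on adenomas excised from C57BL/6J mice of 2 genotypes aged 100 to 120 days, with 3 libraries each. The Apc1322T/+ mice carry an Apc truncation that keeps part of its control over β-catenin, whereas the shorter ApcMin/+ truncation leaves next to none. Both alleles are germline and heterozygous in the mice, every library comes from tumour tissue, and no normal tissue entered the comparison. The paper describes ApcMin adenomas as arising through Apc loss of heterozygosity in a single epithelial cell, which was not examined here. RNA extractions from a single mouse were typically pooled into each sample, so p-values measure the spread between such samples.

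Cells make cholesterol from acetyl-CoA through HMG-CoA, mevalonate, isoprenoids and squalene, and the same route feeds protein prenylation and ubiquinone synthesis. When sterols in the endoplasmic reticulum are low, SCAP escorts SREBP2, the product of Srebf2, to the Golgi, where proteases release a fragment that enters the nucleus and activates the genes of the pathway. When sterols are high, INSIG proteins hold SCAP back, and Insig1 is itself an SREBP target, which closes a feedback loop. The intestine both makes cholesterol and absorbs it: its epithelium is a site of sterol synthesis, and absorptive enterocytes take up sterols through NPC1L1 and package them into chylomicrons.

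The promoters of the pathway are shown first, since shared control by SREBP2 and its partner NF-Y is what the 7 genes are known for. Windows from 250 bases before to 50 after the start of each gene, from RefSeq on GRCm38.p6, were matched for 5 of the 7 (Hmgcs1, Idi1, Lss, Srebf2 and Insig1). Each of the 5 holds ATTGGC or its reverse complement GCCAAT, which is the CCAAT box that NF-Y recognises with a G before it. Searched on both strands, it occurs in 14.7% of 32851 windows and in 11 of 16 windows of synthesis enzymes. Those 16 include Hmgcs1, Idi1 and Lss, so they are not a separate set. The shorter CCAAT, which every ATTGGC contains in reverse, occurs in 37.4% of all windows and GGGCGG, a core of the Sp1 site, in 35.7%, and both occur in all 5. TCACCCCA, part of a sterol response element, occurs in Hmgcs1 and Srebf2 and in 1.56% of all windows. Of the 16 windows of synthesis enzymes it occurs in 1, that of Hmgcs1 itself. A longer form of that element, searched by its exact letters, occurs in 0.0913% of all windows and in none of the 5. The stretches below run from 15 bases before the first match to 15 after the last, on the strand of the gene, with ATTGGC and TCACCCCA in capitals.
Hmgcs1, chr13:119690160-119690326, plus strand: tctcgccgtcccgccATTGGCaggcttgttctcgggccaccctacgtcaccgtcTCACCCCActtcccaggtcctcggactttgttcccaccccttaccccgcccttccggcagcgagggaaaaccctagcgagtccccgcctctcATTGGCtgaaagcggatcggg
Lss, chr10:76531528-76531563, plus strand: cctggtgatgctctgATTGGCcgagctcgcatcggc
Srebf2, chr15:82147092-82147154, plus strand: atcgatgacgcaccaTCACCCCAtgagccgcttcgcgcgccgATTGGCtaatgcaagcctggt
Insig1, chr5:28071181-28071216, plus strand: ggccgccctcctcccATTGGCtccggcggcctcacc
ATTGGC begins 176 and 45 bases before the RefSeq start in Hmgcs1, 62 in Lss, 135 in Srebf2 and 216 in Insig1. These RefSeq starts differ from the GENCODE gene starts given for the same genes below. Idi1 has it at 45 and 14 bases before the RefSeq start, in a stretch that overlaps an annotated exon and is not printed. TCACCCCA begins 137 bases before the RefSeq start of Hmgcs1 and 162 before that of Srebf2. These motifs were chosen with the sequences in view, and a match describes the letters only.

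The 6 libraries held 23132461 to 33518324 estimated counts, so that 3 counts correspond to 0.0895 to 0.130 CPM (counts scaled to a common library size). The members lay far above that floor, between 939 estimated counts (Lss in Apc1322T replicate 2) and 13185 (Hmgcs1 in ApcMin replicate 1). The tissue expressed epithelial markers strongly. All 8 of them (Epcam, Cdh1, Vil1, Krt8, Krt18, Krt19, Cdx1 and Cdx2) had a negative fold change, 4 at an unadjusted p under 0.05 (7.6% of all tested genes were negative and 7.49% positive at that threshold), and their summed level was 12260 to 14300 CPM in Apc1322T against 10040 to 11560 in ApcMin. Enterocyte and goblet markers (10 and 6 genes) were likewise all negative, with 2 and 4 at that threshold, while all 6 fibroblast and all 6 smooth muscle markers were positive, with 2 and 2. The summed enterocyte level spanned 12580 to 22770 CPM in Apc1322T and 7345 to 15190 in ApcMin. Each library is a mixture of cells, in which fewer cells of a type and less RNA per cell cannot be told apart.

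None of the 7 genes was called different between the genotypes. Fold changes are ApcMin minus Apc1322T on the log2 scale throughout, levels are log2 CPM after TMM normalisation, and intervals cover 95%. In edgeR's quasi-likelihood test none of the 7 passed an adjusted p of 0.01, a threshold that 0 of 16536 genes passed (0%; 194 genes, or 1.12% of 17346, by DESeq2, none of them a member). At an unadjusted p under 0.05 the count was again 0 of 7, against 15.1% of all tested genes. The libraries of the genotypes overlapped for all 7, whereas 21% of all genes had no overlap. Fold changes were negative for Idi1 and Insig1 and positive for the other 5, against 47.6% negative among all genes. Scaling by library totals alone, which moved the median of all genes from 0.0167 to 0.175, left none of the 7 negative. The median over the members was 0.022.

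Hmgcs1 encodes cytosolic HMG-CoA synthase, which joins acetyl-CoA and acetoacetyl-CoA early in the pathway. The gene lies at chr13:119690379-119708260 on the plus strand (GRCm38). Its level was 8.25, 8.73 and 8.55 in Apc1322T replicates 1 to 3, and 8.52, 8.65 and 8.39 in ApcMin replicates 1 to 3. The lowest and the highest value both came from Apc1322T, and the ApcMin libraries fell between them. The means were 8.51 ± 0.241 and 8.52 ± 0.126 (SD, n = 3), a log2 fold change of 0.00088 (SE 0.143, interval -0.34 to 0.34, adjusted p = 0.998 by edgeR's quasi-likelihood test), whose sign turned with DESeq2's size factors. The interval corresponds to 0.790 to 1.27 times the Apc1322T level.

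Idi1 encodes isopentenyl-diphosphate isomerase, which converts isopentenyl diphosphate to its reactive isomer for isoprenoid chain growth. It lies at chr13:8885501-8892451 on the plus strand. Apc1322T replicates 1 to 3 gave 7.73, 7.87 and 7.68, and ApcMin replicates 1 to 3 gave 7.65, 7.71 and 7.50. The highest value was in Apc1322T and the lowest in ApcMin, yet ApcMin replicate 2 stood above Apc1322T replicate 3. The log2 fold change was -0.14 (SE 0.0976, interval -0.37 to 0.094), with an adjusted p of 0.506 by the same edgeR test, and it turned to 0.023 with library totals. Of the 7 genes Idi1 had the most negative estimate.

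Fdft1 encodes squalene synthase, which condenses a pair of farnesyl diphosphates and so commits the pathway to sterols. It lies at chr14:63145150-63179578 on the minus strand. Its level was 7.19, 7.25 and 7.12 in the Apc1322T replicates and 7.30, 7.32 and 7.08 in the ApcMin replicates. ApcMin held both extremes and enclosed the Apc1322T libraries. The log2 fold change of 0.053 (SE 0.0954, interval -0.17 to 0.28, edgeR adjusted p = 0.801) was under the spread between replicates.

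Sqle encodes squalene monooxygenase, the first oxygen-dependent step and a second control point of the pathway. It lies at chr15:59315077-59331192 on the plus strand. The Apc1322T replicates gave 7.02, 7.14 and 7.21 and the ApcMin replicates 7.09, 7.38 and 6.94. As with Fdft1, the highest value was ApcMin replicate 2, the lowest ApcMin replicate 3, and the other genotype lay inside. The log2 fold change was 0.022 (SE 0.129, interval -0.29 to 0.33, edgeR adjusted p = 0.943). Without ApcMin replicate 2 it was -0.11.

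Lss encodes lanosterol synthase, which folds oxidosqualene into the first sterol. It lies at chr10:76531588-76557138 on the plus strand and had the largest fold change and the widest spread of the 7. Its level was 5.95, 5.48 and 5.48 in Apc1322T replicates 1 to 3 and 5.81, 5.98 and 6.16 in ApcMin replicates 1 to 3. Apc1322T replicates 2 and 3 were the lowest of all libraries, but Apc1322T replicate 1 stood above ApcMin replicate 1. The means were 5.64 ± 0.272 and 5.98 ± 0.178 (SD, n = 3), a log2 fold change of 0.33 (SE 0.162, interval -0.052 to 0.72, fold 1.26), with an adjusted p of 0.372 by edgeR and 0.420 by DESeq2. Leaving out Apc1322T replicate 1 raised it to 0.51 with an adjusted p of 0.0763 in edgeR, and the adjusted p over all settings ran from there to 0.739.

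Srebf2, at chr15:82147181-82205379 on the plus strand, encodes the SREBP2 precursor. It was the steadiest of the 7, with 8.24, 8.09 and 8.15 in the Apc1322T replicates and 8.17, 8.19 and 8.28 in the ApcMin replicates. The genotypes interleaved within a range of 0.186. Among 533 genes of like level (within 0.5 on the log2 scale), 2.63% had a smaller SD over the 6 libraries. The log2 fold change was 0.050 (SE 0.0862, interval -0.16 to 0.26, edgeR adjusted p = 0.794). The measurement is of RNA and says nothing of SREBP2 cleavage.

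Insig1, at chr5:28071363-28078662 on the plus strand, encodes the sterol-regulated retention protein of SCAP. Its level was 7.04, 7.56 and 7.06 in the Apc1322T replicates and 7.12, 7.13 and 7.25 in the ApcMin replicates. Apc1322T replicate 2 stood above the other libraries, which lay close together, and it was also the highest library, by less, for Hmgcs1 and Idi1. The log2 fold change was -0.072 (SE 0.154, interval -0.44 to 0.29, edgeR adjusted p = 0.836), and it became 0.12 without Apc1322T replicate 2 and 0.094 with library totals.

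**Figure D1:**
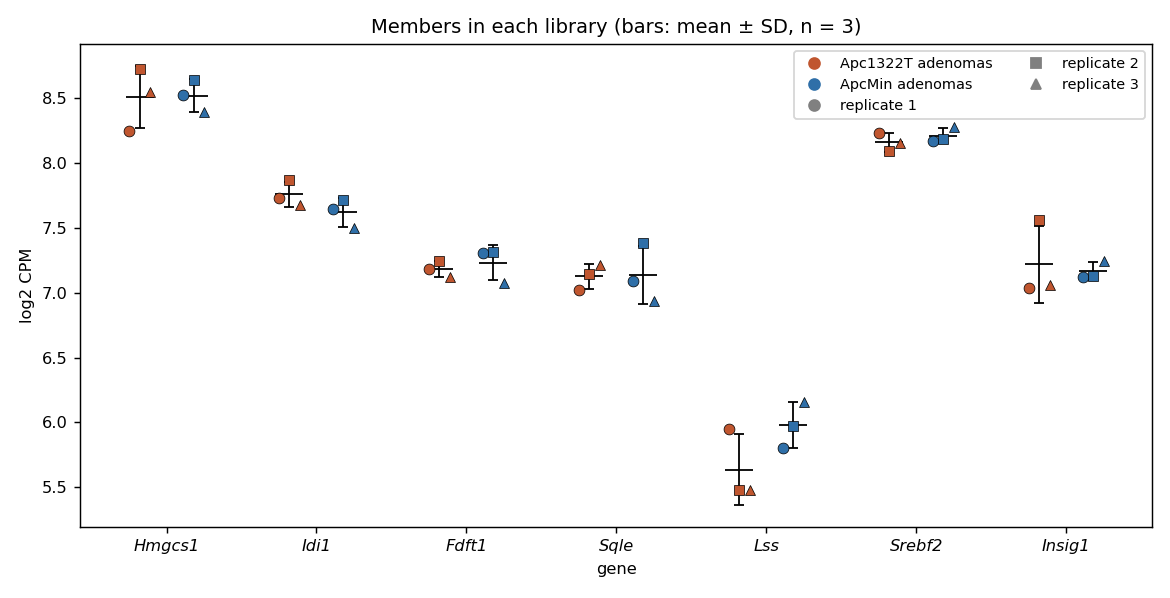
Log2 CPM of each of the 7 genes in the 3 Apc1322T and 3 ApcMin libraries, with points for libraries, shapes for replicate numbers and bars for the mean ± SD of a genotype. The genotypes overlap for every gene, and Lss shows the widest range (0.685) and Srebf2 the narrowest (0.186).

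The intervals limit how large a difference could have gone unseen. For 6 of the 7 genes, all but Lss, the interval lay within 0.5 of zero on the log2 scale, as it did for 36% of all tested genes. The median absolute fold change was 0.0533 for the members and 0.212 for all genes, and a fold change over 0.5 in size was found for 21.7% of all genes and none of the 7. The spread over libraries was also narrower than for most genes. The range over the 6 libraries was 0.477 for Hmgcs1, 0.369 for Idi1, 0.237 for Fdft1, 0.443 for Sqle, 0.685 for Lss, 0.186 for Srebf2 and 0.523 for Insig1, and only that of Lss exceeded the median gene's 0.648. Set against genes of like level, however, the SDs of the other members were less unusual: the share of such genes with a smaller SD was 18.3% for Fdft1, 25.5% for Idi1, 46.3% for Hmgcs1, 46.7% for Sqle, 61.4% for Insig1 and 81.2% for Lss.

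Levels between genes were compared as CPM per kb of the principal transcript, over all 6 libraries. Hmgcs1 was highest at 106.3 ± 12.4 (SD, n = 6), followed by Idi1 at 68.4 ± 5.67. Hmgcs1 exceeded Idi1 in 6 of 6 libraries, and Idi1 exceeded Srebf2 in 5. Srebf2 (57.4 ± 2.58) exceeded Insig1 (54.7 ± 7.94) in 5 libraries and Insig1 exceeded Sqle (51.1 ± 5.61) in 4, and each of these neighbours differed by less than the SD of Insig1. Fdft1 (40.1 ± 2.69) was below Sqle in 6 of 6 libraries, and Lss was lowest at 12.2 ± 2.30 and below Fdft1 in all 6. With the merged length of all exons in place of the principal transcript, a choice made after the data were seen, Hmgcs1, Idi1 and Lss kept their places, at 80.1, 59.1 and 5.27. Sqle (25.4) then came below Fdft1 (35.0) and Srebf2 (40.6) below Insig1 (47.7).

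Among the 21 measured enzymes of the pathway, Hmgcs1 was exceeded only by Fdps, which makes farnesyl diphosphate and reached 130.2 CPM per kb. Msmo1 (81.3), which acts after lanosterol, came between Hmgcs1 and Idi1. Lss lay next to the lowest enzyme, Hsd17b7, at 9.73.

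**Figure D2:**
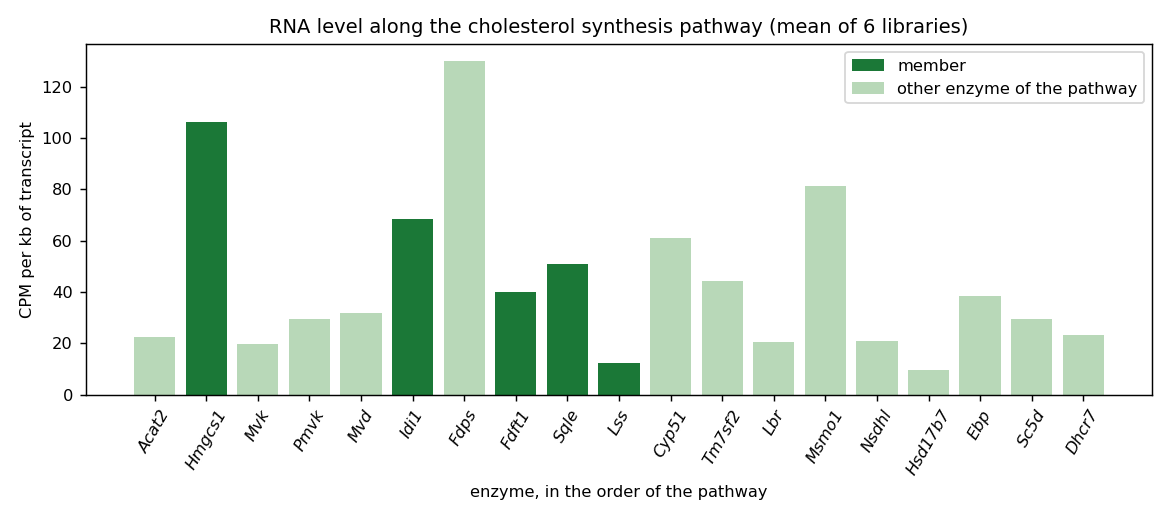
Mean CPM per kb of the principal transcript over 6 libraries for enzymes of cholesterol synthesis, in pathway order, with members in dark green. Not every enzyme of the list is drawn. Fdps (130.2) and Hmgcs1 (106.3) are the tallest bars, and Lss (12.2) is among the lowest.

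The other synthesis enzymes gave no call either. Of the 16 synthesis enzymes that are not members, 6 had a negative and 10 a positive log2 fold change in the main edgeR fit. None had an unadjusted p under 0.05 there, and the interval lay within 0.5 of zero for 13. The 9 enzymes up to squalene had a median of 0.048 and the 12 from squalene to cholesterol a median of 0.0064. Summed over all 21, the level was 2569, 2802 and 2630 CPM in the Apc1322T replicates and 2620, 2808 and 2476 CPM in the ApcMin replicates, with ApcMin holding both the highest sum (replicate 2) and the lowest (replicate 3). Ebp, the sterol isomerase, was the only enzyme lower in every ApcMin library than in any Apc1322T library, with 6.03, 6.40 and 6.14 against 5.98, 5.82 and 5.97, at -0.27 (SE 0.118, edgeR adjusted p = 0.338). In either direction, 2 of the 21 had no overlap, beside the 21% of all genes. Dhcr7, the final reductase, had the smallest p of the list at -0.23 (SE 0.0987), with an adjusted p of 0.334 in edgeR. The other enzymes named by rank were Fdps (0.048), Pmvk (0.062) and Sc5d (-0.19), with edgeR adjusted p-values from 0.535 to 0.796.

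Around Srebf2 and Insig1, the 10 genes of sterol sensing and SREBP processing split into 5 negative and 5 positive log2 fold changes, with a median of -0.0052. Mbtps1, the site-1 protease that makes the first cut in SREBPs, was the only gene of the list at an unadjusted p under 0.05 in edgeR. That is 1 of 10, beside 15.1% of all tested genes. It gave 6.78, 6.69 and 6.76 in Apc1322T and 6.85, 6.97 and 7.19 in ApcMin, with every ApcMin library above every Apc1322T library. Such a lack of overlap, in either direction, was found for 21% of all tested genes. Its log2 fold change was 0.27 (SE 0.106), and it did not pass adjustment (edgeR adjusted p = 0.317). Insig2, the paralog of Insig1, had -0.15 (edgeR adjusted p = 0.564) and Srebf1, which encodes the SREBP that favours fatty acid genes, -0.047 (adjusted p = 0.852). Rnf145, which encodes a sterol-responsive ubiquitin ligase, had 0.10 (edgeR adjusted p = 0.644).

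Uptake is the other source of cellular cholesterol, and the median range of its 13 genes over the libraries was 0.852, against 0.399 for the 21 synthesis enzymes. Npc1l1, the sterol transporter of the enterocyte brush border, had the widest range of the list (2.84). It gave 6.65, 8.71 and 8.92 in Apc1322T and 7.36, 7.98 and 6.08 in ApcMin. Replicates of a genotype differed so much that a log2 fold change of -1.05 (SE 0.686) came with an edgeR adjusted p of 0.478. Scarb1, the HDL receptor, varied as well, with 6.38, 6.33 and 5.38 against 6.06, 5.08 and 6.81, at 0.053 (SE 0.468, edgeR adjusted p = 0.964).

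Of the 13 uptake and intracellular transport genes, 7 had a negative and 6 a positive log2 fold change, with a median of -0.074. Lipa, the lysosomal acid lipase that frees cholesterol from LDL esters, was the only gene at an unadjusted p under 0.05 in edgeR. That is 1 of 13, beside 15.1% of all tested genes. It gave 7.09, 7.49 and 7.03 in Apc1322T and 6.41, 6.44 and 6.86 in ApcMin, lower in every ApcMin library. No overlap, in either direction, was found for 21% of all tested genes. The log2 fold change was -0.63 (SE 0.174), with an adjusted p of 0.279 in edgeR and 0.0411 in DESeq2, both above 0.01. Vldlr, a lipoprotein receptor gene, had -0.47 (edgeR adjusted p = 0.454).

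**Figure D3:**
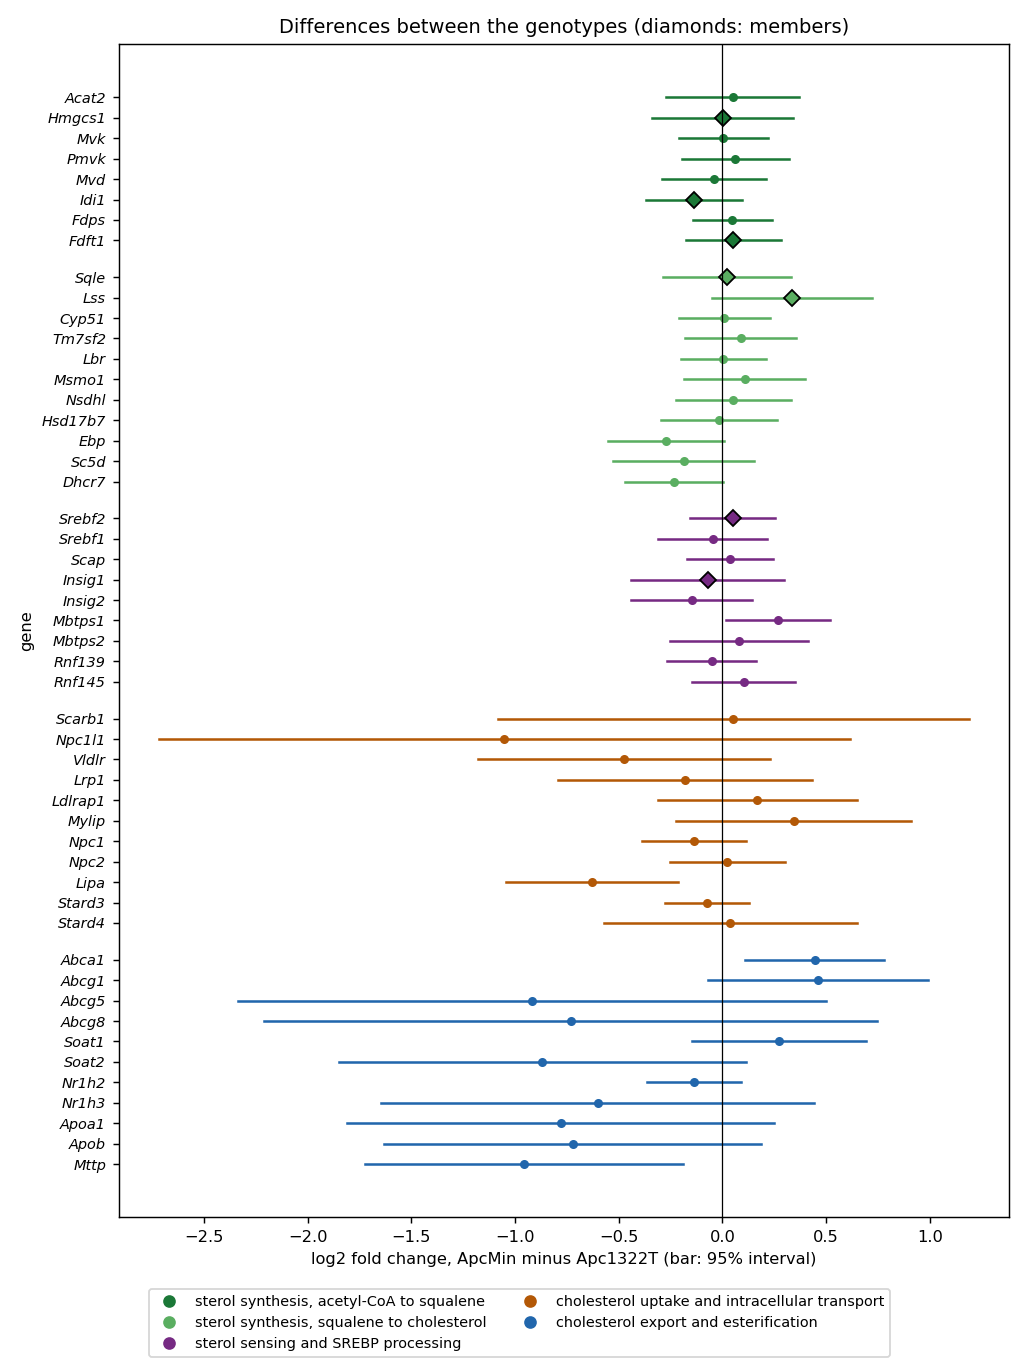
Log2 fold change, ApcMin minus Apc1322T, with its 95% interval for genes of 5 cholesterol lists, not all of them drawn, with members as diamonds. Most synthesis and sensing genes have estimates near 0 with narrow intervals, with Lss (0.33), Mbtps1 (0.27), Ebp (-0.27) and Dhcr7 (-0.23) further out, and several uptake and export genes, Npc1l1 (-1.05) and Mttp (-0.96) among them, lie further left with wide intervals.

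Of the pathway lists, export and esterification genes had the widest median range over the libraries (1.54). Of 11 genes, 8 had a negative and 3 a positive log2 fold change, with a median of -0.72. At an unadjusted p under 0.05 in edgeR there was 1 of each direction, Mttp and Abca1, beside 15.1% of all tested genes. Mttp, which loads lipid onto apolipoprotein B and is also one of the enterocyte markers, gave 9.44, 10.56 and 10.53 in Apc1322T and 9.06, 9.60 and 9.20 in ApcMin. Apc1322T replicate 1 sat within the ApcMin range, and the log2 fold change of -0.96 (SE 0.319) had an edgeR adjusted p of 0.288. Soat2, which esterifies sterols in enterocytes, had -0.87 (SE 0.404, edgeR adjusted p = 0.364). Abca1 and Abcg1, whose products pass cholesterol to lipoproteins, lay the other way, at 0.44 (SE 0.140, edgeR adjusted p = 0.286) and 0.46 (SE 0.223, adjusted p = 0.370). Each was higher in every ApcMin library than in any Apc1322T library, Abcg1 only just (3.393 against 3.386 at the nearest). They were 2 of 11 genes without overlap, beside 21% of all tested genes.

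Many export genes were lowest within their genotype in both Apc1322T replicate 1 and ApcMin replicate 3. This pair of libraries was chosen after the data were seen, and the shares given for it carry no test. That held for 6 of 11 export genes (54.5%), against 3 of 21 synthesis enzymes (14.3%), 2 of 7 members (28.6%) and 19.6% of all tested genes. It also held for 6 of 10 enterocyte (60%), 4 of 6 goblet (66.7%), 5 of 8 epithelial (62.5%) and 3 of 5 Paneth markers (60%), although the summed enterocyte level in ApcMin was lowest in replicate 1 (7345 CPM) and not in replicate 3 (9124). Elsewhere it held for 3 of 13 uptake (23.1%), 1 of 10 sensing (10%) and 1 of 15 fatty acid synthesis genes (6.67%). Among the other markers it held for 2 of 6 leukocyte (33.3%) and 1 of 6 enteroendocrine genes (16.7%). No stem cell, fibroblast, smooth muscle, endothelial or cell cycle marker showed it. The median range over the libraries was 2.37 for the enterocyte markers. The summed level of the 7 members was also lowest, within each genotype, in these libraries, but over a narrow span: it was 1287, 1457 and 1330 CPM in the Apc1322T replicates and 1347, 1430 and 1309 CPM in the ApcMin replicates. Such a sum weights the most abundant members. With each member's centred log2 CPM weighted equally, the lowest Apc1322T library was replicate 3 (-0.069), not replicate 1 (-0.046). In ApcMin it was still replicate 3 (-0.019). The part of cell composition in these values was not tested.

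**Figure D4:**
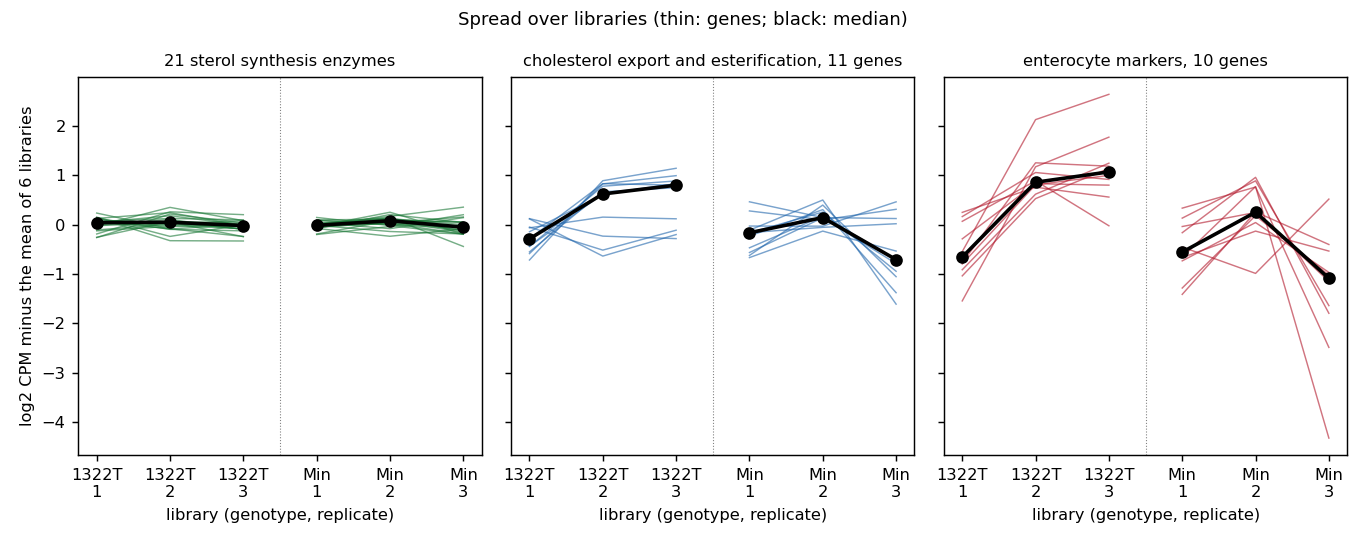
Log2 CPM minus the gene's mean over 6 libraries for synthesis enzymes (21 genes), export and esterification genes (11) and enterocyte markers (10), with thin lines joining the values of a gene and the black line their median. The replicates have no order, and the lines only link values of a gene. Synthesis enzymes stay near 0 in every library, whereas the medians of the other lists are lowest, within each genotype, in Apc1322T replicate 1 and ApcMin replicate 3.

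Since all 8 epithelial markers had a negative fold change, none at an adjusted p of 0.01, the members were also set against them. The mean of the 8 markers was 9.60, 9.83 and 9.90 in the Apc1322T replicates and 9.51, 9.60 and 9.25 in the ApcMin replicates, a difference of -0.32. Relative to that mean all 7 genes were higher in ApcMin, by 0.19 for Idi1, 0.27 for Insig1, 0.33 for Hmgcs1, 0.34 for Sqle, 0.37 for Fdft1 and for Srebf2 and 0.67 for Lss. Hmgcs1, Fdft1 and Sqle had no overlap on this scale, 3 of 7 beside 26.5% of all genes in the same direction. The markers' own difference enters each of these values. It is larger in size than the most negative member fold change (Idi1, -0.14), so the shared direction of the 7 follows from the scale. The share of all genes higher on this scale was not counted. This measure was chosen after the data were seen and carries no test.

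The average profile of the 7 genes over the libraries was nearly flat, and their individual profiles were not alike. Apc1322T replicate 2 was the highest library for 3 of them, and ApcMin replicates 2 and 3 for 2 each. ApcMin replicate 3 was at once the lowest for 3. The root mean square distance of a member from the average profile ran from 0.0643 (Fdft1) to 0.256 (Lss) on the log2 scale. Among 8771 tested genes with a mean log2 CPM of at least 4, the 5 nearest to that average were Med30 (0.0236), Cd2bp2 (0.0238), Cks2 (0.0272), Med11 (0.0280) and Rfc5 (0.0281), none of them in a pathway list. The nearest synthesis enzymes were Mvk, mevalonate kinase, at rank 10 (0.0373) and Cyp51, lanosterol demethylase, at rank 14 (0.0388), and 2 of the nearest 100 genes were in a pathway list.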

How the data were processed

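RNA was extracted from excised, flash-frozen adenomas, and directional libraries were sequenced as single-end reads by the authors. Per the labels and the study's methods, reads were quantified with Salmon against the GRCm38 transcriptome. The deposited table holds estimated counts per gene, neither normalised nor rounded by the authors. Member counts were not whole in 6 of 6 libraries for every gene but Sqle (2 of 6, tolerance 0.001). The source of these fractions was not tested. Columns were matched to samples by title.

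Estimated counts were rounded. Genes were filtered with filterByExpr (minimum count 10, minimum total 15), TMM-normalised and compared with edgeR 4.0.16 (robust quasi-likelihood fit, genotype only, two-sided, Benjamini-Hochberg over 16536 genes, threshold 0.01) in R 4.3.3. Log2 CPM used a prior count of 2. The procedure was tested on simulated data. Alternatives were DESeq2 1.42.0, limma-voom (limma 3.58.1), other scalings and filters, a replicate block, and each library left out in turn. Symbols were matched to GENCODE M21 for 34582 of 34866 genes. Lengths are those of the longest principal transcript.

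The 7 genes, the pathway and marker lists and the tests were chosen with earlier results of these data known. Genes named are the members, the genes of smallest unadjusted p in each pathway list (up to 4), Npc1l1, Scarb1, Srebf1 and Insig2, and the 5 genes of nearest profile, with others named for their level or marker role. Intervals and p-values reflect the spread among 3 libraries per genotype. Some genes that the rule names are not reported here, and they are counted in the lists only.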

Additional observations from a re-analysis of the deposited data

How the results depend on the processing

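No member passed an adjusted p of 0.01 under any setting run. Genes called at that threshold numbered 0, against 194 with DESeq2's Wald test, 1 with no filter on low counts, 1 at an adjusted p of 0.05 and 0 to 1 when single libraries were left out (1 without ApcMin replicate 3). Genes at an unadjusted p under 0.05 numbered 2495, and 1180 (without Apc1322T replicate 2) to 4117 (without Apc1322T replicate 1) with a library left out. Members at that threshold numbered 0, and 1, Lss, with library totals only or without Apc1322T replicate 1 (0 to 1 over left-out libraries). Of the 16 synthesis enzymes that are not members, 0 were at that threshold in the main fit. There were 2 with DESeq2's size factors, with library totals only or without Apc1322T replicate 1. Negative fold changes among the 16 numbered 6 in the main fit and 4 to 10 over the settings. Scaling by library totals moved medians to 0.18 for the members, 0.20 for enzymes up to squalene, 0.16 from squalene on, 0.15 for sensing and 0.085 for uptake, beside 0.175 for all genes, and turned Idi1 to 0.023 and Insig1 to 0.094. With upper quartile normalisation the uptake median was -0.017. Hmgcs1 became -0.0084 with DESeq2's size factors and -0.014 with its Wald test. With single libraries left out, the fold change of Hmgcs1 ran from -0.11 to 0.12, of Sqle from -0.11 to 0.12 and of Insig1 from -0.16 to 0.12, and the member median from -0.054 to 0.085. The causes of these shifts were not tested.

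The labels do not say that replicate numbers pair the libraries. Deviations from the genotype means correlated at -0.0139, 0.164 and -0.286 for the same-numbered pairs, and from -0.359 to 0.329 for the others. With 3 libraries per genotype these values cannot exclude a pairing. With the number as a replicate block, 2113 genes had an unadjusted p under 0.05 in place of 2495, 0 of the 7 members among them, and the same number of members (2) was negative. The lowest estimated count of a member was 939, and the part of depth was not tested.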

Other observations

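The fatty acid arm, which SREBP1 rather than SREBP2 is known to favour, was measured through 15 genes. Of these, 5 had a negative and 10 a positive log2 fold change (ApcMin minus Apc1322T), with a median of 0.038, and 2 had an unadjusted p under 0.05 in edgeR, both negative, beside 15.1% of all tested genes in either direction. Me1, malic enzyme, a source of NADPH for lipid synthesis, gave 6.86, 7.73 and 7.24 in the Apc1322T replicates and 6.57, 6.95 and 6.52 in the ApcMin replicates. ApcMin replicate 2 overlapped Apc1322T replicate 1, and the log2 fold change was -0.63 (SE 0.238, edgeR adjusted p = 0.312). Elovl6, which elongates palmitate, gave 7.04, 7.85 and 7.56 in Apc1322T, against 6.94 to 7.11 in ApcMin, at -0.51 (SE 0.199, edgeR adjusted p = 0.317). Acaca, acetyl-CoA carboxylase, had 0.20 (edgeR adjusted p = 0.378) and Scd2, a desaturase, 0.23 (adjusted p = 0.435), and none of the 15 passed an adjusted p of 0.01. Fasn, fatty acid synthase, added here after its value was seen, had 0.0071 (SE 0.146, edgeR adjusted p = 0.984).

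The counts for other cell type markers stand beside 7.6% of all tested genes with a negative and 7.49% with a positive fold change at an unadjusted p under 0.05 in edgeR. None of these markers passed an adjusted p of 0.01 in edgeR. By DESeq2's Wald test the endothelial marker Cdh5 did, with a positive fold change (adjusted p = 0.0067). Among the marker lists given earlier, Agr2 (goblet, negative, 0.00201) and Pdgfra (fibroblast, positive, 0.0065) also passed in DESeq2. Of 6 crypt base stem cell genes, 3 had a negative and 3 a positive fold change, 1 each at an unadjusted p under 0.05, and cell cycle genes split 3 to 4 with none at that threshold. Paneth genes were positive for 4 of 5 (1 under 0.05), endothelial genes for 5 of 5 (1), leukocyte genes for 5 of 6 (1) and enteroendocrine genes for 1 of 6 (0).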
